A study of Homo sapiens with 6 samples.

Results

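This account describes how transcript levels differed after knockdown of NRF3 in HCT116-p53KO, a derivative of the human colon cancer line HCT116 that the labels describe as deficient in p53. Genes entered the comparison when they were named by a probe set with 1 gene symbol and either of the 2 arrays gave a log2 intensity of 6 or above, with the brightest probe set standing for a gene that had several. Of 18417 genes on the arrays, 13680 met this rule, among them 236 small RNAs. The value of each gene is the log2 intensity with NRF3 siRNA minus that with control siRNA, so a negative value means a lower level after knockdown.

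The HCT116-p53KO cells were grown in DMEM with serum, transiently transfected with NRF3 siRNA or control siRNA, and lysed for total RNA 48 h later. HCT116 cells were treated alike, and H1299 cells, a lung carcinoma line, stably expressed NRF3 or GFP from a plasmid after G-418 selection. Each of these 6 groups had 1 array. The titles name the p53 status of the line, the cell line field of the labels reads HCT116 for both colon lines, and the p53 gene itself is not analysed here. The sources used here do not give how many clones the p53-deficient line comes from, how many siRNAs were used or their sequence. With 1 array on each side no difference below could be tested against replicates, and all are given as sizes.

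NRF3, encoded by NFE2L3, belongs to the cap'n'collar family of basic leucine zipper transcription factors together with NRF1 and NRF2. These proteins pair with small MAF proteins and bind antioxidant-type DNA elements. NRF3 is held in the membrane of the endoplasmic reticulum until it is processed and enters the nucleus, and it is abundant in many colon cancers. p53 is a transcription factor that restrains the cell cycle and promotes cell death under stress, so a p53-deficient line allows the knockdown to be followed apart from those functions.

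NFE2L3 stood at 8.71 with control siRNA and 7.15 with NRF3 siRNA, a difference of -1.55 or 2.94-fold lower. Of all 13680 genes, 7 lay lower than NFE2L3 in this comparison. The colon epithelial label was met in part. Of 10 epithelial markers, 6 were at 6 or more, including EPCAM (11.04 and 11.18) and the intestinal factor CDX2 (8.55 and 8.69), while CEACAM5, VIL1, KRT20 and LGR5, markers of more mature or stem-like colon cells, lay under 6 on both arrays. All 4 endothelial markers lay under 6, as did 3 of 4 leukocyte markers and 3 of 4 markers of lung epithelium. The leukocyte marker PTPRC was at 3.47 and 3.26, and CD14, the one that reached 6, at 6.26 and 5.79. Of 7 fibroblast markers, 4 reached 6, with COL1A1 at 7.92 and 8.02, while DCN, LUM and FAP lay between 2.87 and 4.66.

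Most genes differed little. The differences had a median of 0.00 and an SD across genes of 0.30, and 95% of them lay between -0.57 and 0.65. At least 2-fold lower were 59 genes (0.431% of those compared) and at least 2-fold higher were 38 (0.278%). At 1.5-fold the balance turned, with 325 genes lower (2.38%) and 496 higher (3.63%). Genes below 0 made up 49.5% and genes above 0 made up 50.5%. As a measure of technical spread, probe sets for the same gene differed with an SD of 0.15 around their gene's mean, over 1363 probe sets of 572 genes. An array under 6 was involved for 7 of the 59 lower and 5 of the 38 higher genes, and the size of such a difference is uncertain, since 6 lies low on the intensity scale.

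**Figure D1:**
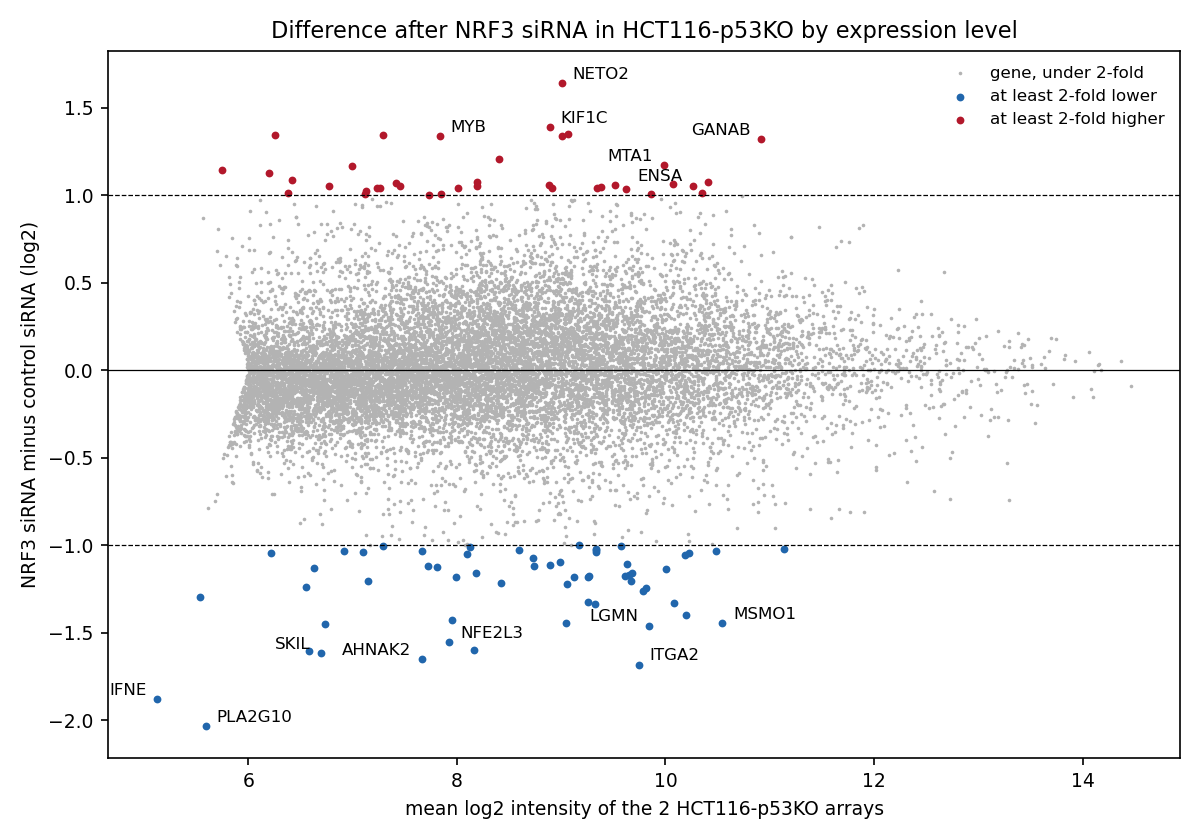
Each point is 1 gene, with the mean log2 intensity of the 2 HCT116-p53KO arrays on the horizontal axis and NRF3 siRNA minus control siRNA (log2) on the vertical axis. Blue and red points are the 59 genes at least 2-fold lower and the 38 at least 2-fold higher, and dashed lines mark 2-fold.

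The rule's limits cut through a continuous range. Just inside the level of 6 were NAT16 (6.0007 and 5.7208) and PLXDC2 (6.0010 and 5.7647), and just outside was RAB9B (5.9995 and 5.9867), with ALDH8A1 a fraction under 6 with control siRNA and at 5.6619 with NRF3 siRNA. At 2-fold lower, GLMP (-1.0010) and GSKIP (-1.0037) were just inside and RASSF2 (-0.9992) and RAB3D (-0.9992) just outside. At 2-fold higher, HABP4 (1.0024) and GRAMD2A (1.0053) were just inside and PCLAF (0.9973) and ZNF252P (0.9808) just outside.

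The lowest values included those of a secreted lipid enzyme, an integrin chain and a scaffold protein. PLA2G10, a secreted phospholipase A2 that releases fatty acids from phosphatidylcholine, was at 6.61 with control siRNA and 4.58 with NRF3 siRNA (-2.03). ITGA2, the alpha chain of the collagen receptor integrin alpha-2 beta-1, was at 10.58 and 8.90 (-1.68). AHNAK2, a very large scaffold protein whose gene overlaps PLD4, was at 8.49 and 6.84 (-1.65). ITGA2 and AHNAK2 were measured above 6 on both arrays, whereas PLA2G10 lay under 6 with NRF3 siRNA and its size is uncertain. ABHD2, a lipid hydrolase that acts on monoacylglycerols, was at 8.96 and 7.36 (-1.60). LGMN, the asparaginyl endopeptidase of lysosomes, was at 10.57 and 9.11 (-1.46). GPRC5A, an orphan receptor induced by retinoic acid, was at 10.90 and 9.50 (-1.40). ABHD2, LGMN and GPRC5A lay above 6 on both arrays. IFITM1, an interferon-induced protein that blocks virus entry, was at 7.46 and 6.01 (-1.45). MEST, an imprinted hydrolase, was at 9.99 and 8.66 (-1.34). APOBEC3B, a cytidine deaminase that edits DNA, was at 10.75 and 9.42 (-1.33), and its near-identical relatives may share signal with it. TMEM64 (10.42 and 9.16, a difference of -1.26), SLC35B4 (9.03 and 7.82, -1.22), a nucleotide sugar transporter, and KRT80 (7.75 and 6.54, -1.21), a type II keratin, were also among the 25 lowest. RND2 (7.17 and 5.93, -1.24) ended under 6.

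The interferon gene IFNE was at 6.07 and 4.19 (-1.88), ending under 6, so its size is uncertain. IFNE overlaps the long noncoding RNA MIR31HG, which was at 7.44 and 6.40 (-1.03). Of the 236 small RNAs, 0 were at least 2-fold higher, beside 0.278% of all genes, and 2 at least 2-fold lower, beside 0.431%. These were MIR31 (8.67 and 7.25, -1.43), which also overlaps MIR31HG, and MIR21 (9.30 and 8.19, -1.12), which overlaps VMP1 (12.51 and 12.48, -0.02), all named after their values were seen. The host transcript VMP1 thus showed almost no difference while the probe set for MIR21 was lower. The probe sets do not tell precursor, host transcript and mature miRNA apart. The mature sequences are shown because both small RNAs past 2-fold are well-known miRNAs, with the seed (bases 2 to 8) in capitals, from RefSeq on GRCh38.p14 at chr9:21512158-21512178 on the minus strand and chr17:59841273-59841294 on the plus strand. The seeds of these miRNAs differ from each other.
hsa-miR-31-5p: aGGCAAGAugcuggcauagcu
hsa-miR-21-5p: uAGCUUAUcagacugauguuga

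Genes of TGF-beta and SMAD signalling were lower as a group. TGF-beta and BMP ligands signal through receptor kinases to SMAD proteins, which enter the nucleus and act on target genes that include the pathway's own inhibitors. Of 28 genes listed, 25 were expressed, and 20 of these were lower and 5 higher, with a median of -0.28 beside 0.00 over all genes. At least 1.5-fold lower were 6 of the 25, beside 2.38% of all genes, and 0 were 1.5-fold higher. SKIL, a feedback repressor of SMAD proteins, was at 7.50 and 5.89 (-1.62), ending under 6, so its size is uncertain. SMAD3, the receptor-activated SMAD of the TGF-beta branch, was at 10.27 and 9.07 (-1.20). ID2, a helix-loop-helix inhibitor and BMP target, was at 10.20 and 9.02 (-1.17). The lower members therefore included a signal carrier, a repressor and a target. ID1, another BMP target, was at 11.79 and 10.99 (-0.79). SMAD7, an inhibitory SMAD, was at 7.03 and 6.41 (-0.62), and BMPR2, the type II BMP receptor, was at 8.86 and 8.25 (-0.60). SKI, a relative of SKIL, went the other way (10.10 and 10.61, 0.51), as did ID3 (10.31 and 10.61, 0.29). In HCT116, which shares no array with this comparison, the same list had a median of -0.30 with 19 of 25 lower.

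Adhesion receptors and their partners formed the next group. Integrins are pairs of alpha and beta chains that bind matrix outside the cell and the actin cytoskeleton inside. Of 16 integrin chains expressed, 13 were lower, with a median of -0.24, which was -0.38 when a level of 7 was required. At least 1.5-fold lower were 3 of them, beside 2.38% of all genes, namely ITGA2, ITGB5 (9.85 and 8.83, -1.02), a chain of a vitronectin receptor, and ITGA5 (10.02 and 9.29, -0.73), the alpha chain of the fibronectin receptor. Of the 3 higher chains, the one past 1.5-fold was ITGB8, a chain of a receptor that activates latent TGF-beta, at 5.17 and 6.32 (1.15), with the control array under 6. PXN, the focal adhesion adaptor paxillin, was at 9.67 and 8.45 (-1.22), and a dimmer probe set of it showed -0.26. LASP1, an actin-binding adaptor of focal adhesions, was at 10.43 and 9.19 (-1.24), with a dimmer probe set at -0.23. The sizes for PXN and LASP1 therefore depend on the probe set, and the mean of probe sets was -0.74 for each. Of 28 actin cytoskeleton genes, 18 were lower with a median of -0.12, among them AHNAK (9.68 and 9.02, -0.66), LIMA1 (9.53 and 8.79, -0.74), a filament cross-linker, and ACTN4 (12.98 and 12.48, -0.50), an alpha-actinin. TPM4, a tropomyosin, was on the higher side (9.81 and 10.20, 0.40, or 0.21 by the mean of its 2 probe sets).

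Matrix proteases and junction proteins were mixed. TIMP2, an inhibitor of metalloproteinases whose gene overlaps CEP295NL, was at 9.92 and 8.60 (-1.33). ADAM32, an ADAM-type membrane protein, was at 6.74 and 5.70 (-1.04), ending under 6. ADAM15, a membrane-anchored protease, was higher at 8.35 and 9.41 (1.06). Of 12 genes of this list expressed, 7 were lower and 5 higher. Among 25 junction genes, 2 were at least 1.5-fold lower, beside 2.38% of all genes. These were CLDN12 (9.85 and 8.81, -1.04) and CLDN4 (8.89 and 8.12, -0.78), both claudins of tight junctions. CDH1, the epithelial cadherin, was at 9.485 and 9.001 (-0.48). NECTIN3, an adhesion molecule of adherens junctions, was at 10.22 and 10.79 (0.57). The 25 junction genes had a median of -0.07, close to that of all genes. Of 22 annexins and S100 proteins, calcium-binding proteins at membranes, 17 were lower, and 3 were at least 1.5-fold lower, beside 2.38% of all genes. The 3 were S100A3 (7.60 and 6.66, -0.94), S100A16 (10.80 and 10.03, -0.77) and S100A10 (13.67 and 12.93, -0.74). Of 51 RAB GTPases, which direct vesicles between membranes, 34 were lower (median -0.14).

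**Figure D2:**
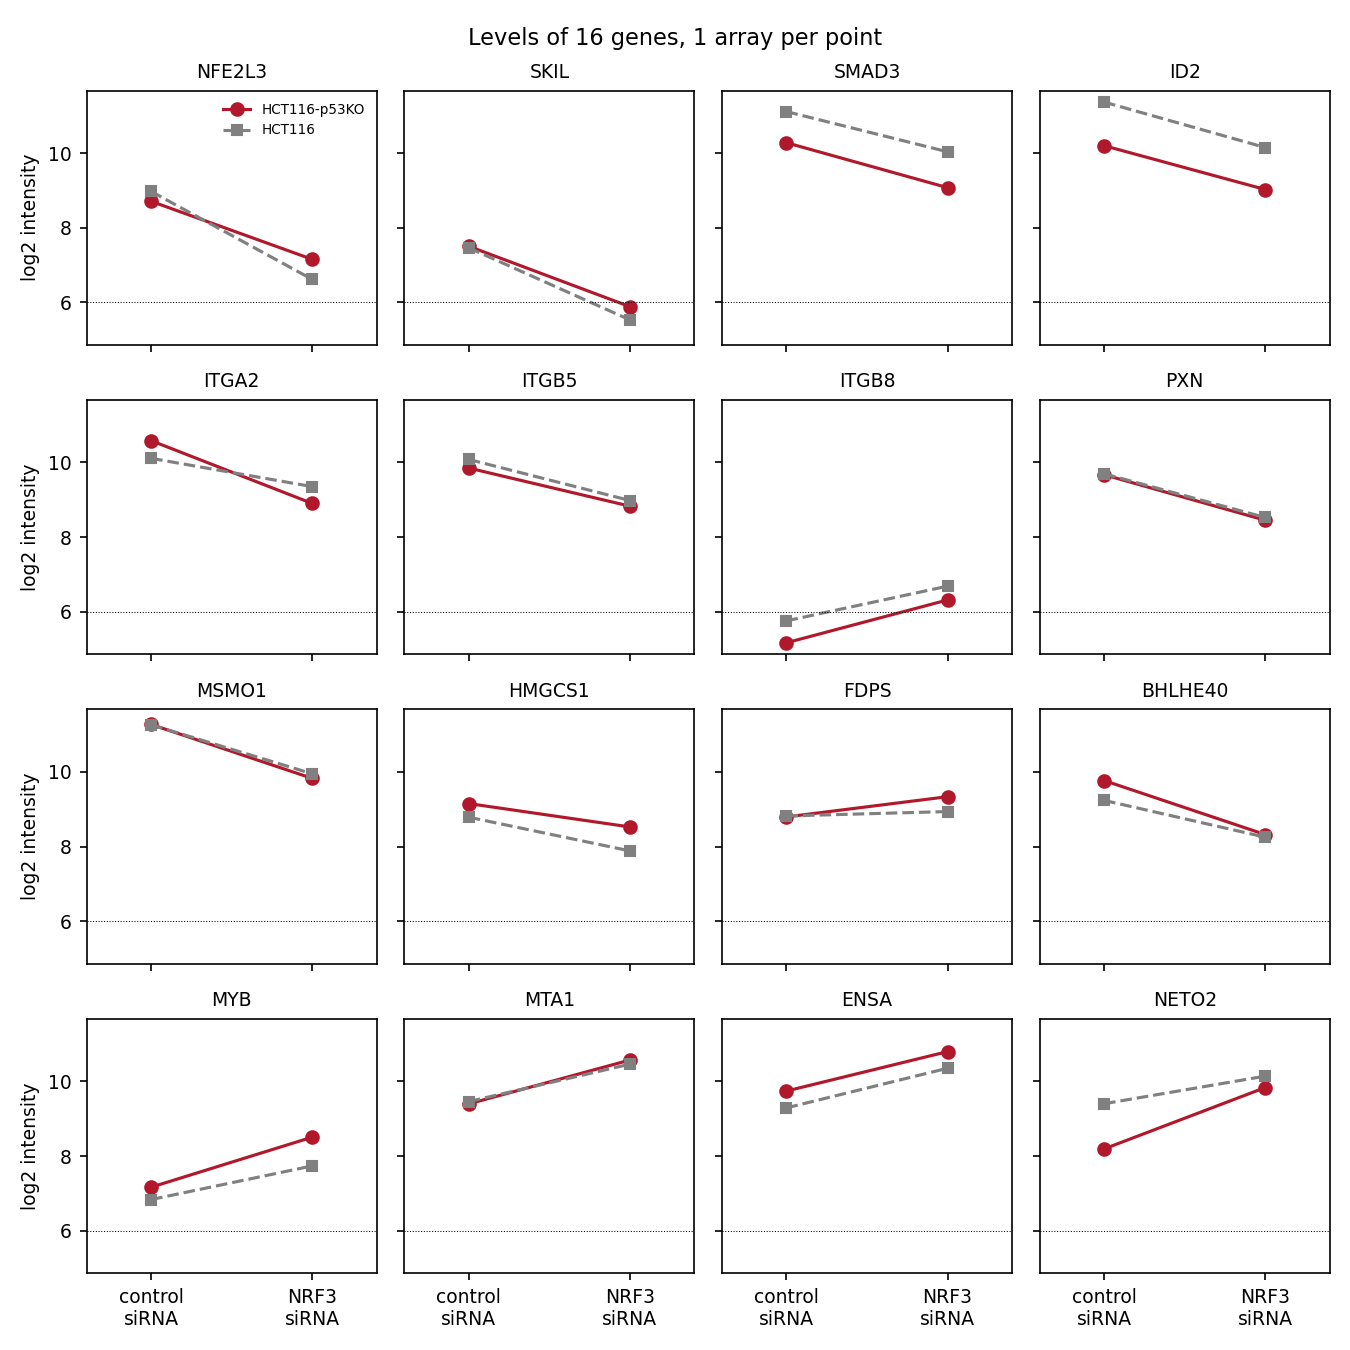
Log2 intensity of 16 genes on the control siRNA and NRF3 siRNA arrays of HCT116-p53KO (red circles) and HCT116 (grey squares), with 1 array per point and a dotted line at 6. NFE2L3, SKIL, SMAD3, ID2, ITGA2, ITGB5, PXN, MSMO1, HMGCS1 and BHLHE40 were lower with NRF3 siRNA in both lines, and ITGB8, FDPS, MYB, MTA1, ENSA and NETO2 were higher in both.

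Enzymes of sterol synthesis were lower in most steps, with exceptions inside the pathway. The pathway builds cholesterol from acetyl-CoA through mevalonate, farnesyl diphosphate, squalene and lanosterol, and SREBP2 drives its genes when sterols are scarce. Sterol synthesis, p53 targets, the cell cycle and the proteasome are themes that published work on NRF3 has raised, perhaps from these same arrays, and the direction of these lists is therefore not independent evidence. Of 18 enzymes expressed, 12 were lower and 6 higher, with a median of -0.21, and 5 were at least 1.5-fold lower, beside 2.38% of all genes. HMGCS1, which makes HMG-CoA, was at 9.15 and 8.53 (-0.63). IDI1, the isopentenyl diphosphate isomerase, was at 9.99 and 9.29 (-0.70). MSMO1, which removes methyl groups from lanosterol-derived sterols, was at 11.27 and 9.83 (-1.44). NSDHL, which acts in the same demethylation, was at 10.72 and 10.09 (-0.64), and SC5D, a late sterol desaturase, was at 10.08 and 9.46 (-0.62). The lower enzymes thus lay at the start, the middle and the end of the pathway. FDPS, the farnesyl diphosphate synthase between these steps, was higher at 8.79 and 9.34 (0.54), and SQLE, squalene epoxidase, was at 9.63 and 9.73 (0.10). Of 13 genes for SREBP control and LDL uptake, 8 were lower with a median of -0.16. DAB2, an adaptor for LDL receptor uptake, was at 6.96 and 6.11 (-0.85), INSIG1, which holds SREBP in the endoplasmic reticulum, at 8.98 and 8.59 (-0.40), and SREBF2, which encodes SREBP2, at 9.92 and 9.64 (-0.28). SREBF1 was on the other side (8.76 and 9.05, 0.29). SCD, which desaturates stearoyl-CoA, had levels of 12.30 and 11.73 (-0.57), while FASN, fatty acid synthase, was at 11.33 and 11.34 (0.01). SCD was the lowest of 14 fatty acid synthesis and desaturation genes, of which 10 were higher, with a median of 0.06 and ME1 the highest (0.60).

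Promoter sequences were searched for short motifs on both strands, from RefSeq on GRCh38.p14, over 250 bases before and 50 after each start site, a table that matched 10738 of the 13680 genes. A CCAAT box (CCAAT) was present in 11 of 16 sterol enzymes with a promoter, beside 35.8% of all 10738. It was present in 37.7% of the genes at least 1.5-fold lower and 35.6% of those at least 1.5-fold higher. The box was not particular to sterol enzymes. It stood in 18 of 30 promoters of the E2F and DNA replication list described below, whose median difference was 0.23. It also stood in 11 of 24 promoters of the TGF-beta and SMAD list and 5 of 13 for SREBP control and LDL uptake. The sterol element TCACNCCAC was found in 0 of the 16 sterol enzyme promoters and in 1.02% of all. The antioxidant-type element TGACNNNGC, bound by cap'n'collar and MAF pairs, was present in 15.3% of all promoters, 15.8% of those at least 1.5-fold lower and 16.9% of those at least 1.5-fold higher, so its share was near that of all genes on both sides. A match is a run of letters in this window and not a measured site. A CCAAT box can overlap its own reverse complement, as in NSDHL. The stretches below, each 80 bases upstream of the start site and read along the gene's strand, show the box in capitals (CCAAT, or ATTGG on the other strand) for 4 of the enzymes that were at least 1.5-fold lower, MSMO1 (chr4:165327589-165327668, plus strand), NSDHL (chrX:152830941-152831020, plus), HMGCS1 (chr5:43313471-43313550, minus) and SC5D (chr11:121292677-121292756, plus), and for FDPS (chr1:155308777-155308856, plus), which was higher. The box thus stood before a lower and a higher gene alike.
MSMO1: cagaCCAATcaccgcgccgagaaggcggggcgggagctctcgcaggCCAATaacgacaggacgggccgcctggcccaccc
NSDHL: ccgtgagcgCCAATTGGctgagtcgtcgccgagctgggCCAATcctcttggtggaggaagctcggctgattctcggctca
HMGCS1: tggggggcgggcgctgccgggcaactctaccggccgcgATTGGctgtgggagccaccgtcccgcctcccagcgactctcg
SC5D: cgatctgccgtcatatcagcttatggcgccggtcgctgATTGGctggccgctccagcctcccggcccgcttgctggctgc
FDPS: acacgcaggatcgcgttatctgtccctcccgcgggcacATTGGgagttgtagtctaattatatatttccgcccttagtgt

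The antioxidant-type element stood in 7 of the 44 promoters matched among genes at least 2-fold lower (15.9%, beside 15.3% of all), so its share was that of the background there too. The 7 were ABHD2, CLDN12, GSN, ITGB5, LASP1, MLLT11 and RRAGC. Stretches of ABHD2 (chr15:89040918-89040997, plus strand), LASP1 (chr17:38869821-38869900, plus) and ITGB5 (chr3:124901582-124901661, minus) are shown as examples, with the element in capitals on either strand.
ABHD2: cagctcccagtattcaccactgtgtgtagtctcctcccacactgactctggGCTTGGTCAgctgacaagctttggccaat
LASP1: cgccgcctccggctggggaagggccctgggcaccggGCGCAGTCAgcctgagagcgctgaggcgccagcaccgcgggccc
ITGB5: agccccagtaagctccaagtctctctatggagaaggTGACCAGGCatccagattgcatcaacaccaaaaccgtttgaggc

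The cap'n'collar family itself was divided. NFE2L2, which encodes the antioxidant regulator NRF2, was at 10.46 and 9.95 (-0.50), and its partner MAFG was at 9.30 and 8.95 (-0.35, or -0.19 by the mean of its 3 probe sets). NFE2L1, which encodes NRF1, a regulator of proteasome genes, was higher at 9.86 and 10.37 (0.51). Of 22 antioxidant genes of the NRF2 type, 14 were lower (median -0.13). The thioredoxin pair stood out, with TXNRD1, thioredoxin reductase, at 11.14 and 10.24 (-0.90) and TXN, thioredoxin, at 10.93 and 10.27 (-0.66). GSR, glutathione reductase, differed by -0.44, and SLC7A11, the cystine importer, at 9.52 and 9.15 (-0.37). ABCC2, a conjugate exporter, went the other way (9.89 and 10.78, 0.90). Proteasome genes were close to 0. The 14 subunits of the 20S core had a median of 0.05 and lay between -0.12 and 0.24, and the 15 subunits of the 19S regulator had a median of 0.03, with PSMC3 (9.68 and 10.41, 0.73) as the only one past 1.5-fold.

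Hypoxia and stress genes were lower in part. BHLHE40, a repressor induced by low oxygen, was at 9.77 and 8.32 (-1.45), LOXL2, a matrix amine oxidase, at 8.41 and 7.54 (-0.87), NDRG1 at 10.22 and 9.42 (-0.80) and BNIP3, a mitophagy receptor, at 10.58 and 9.87 (-0.72). These were the 4 of 18 hypoxia genes at least 1.5-fold lower, beside 2.38% of all genes, in a list with 14 lower and a median of -0.17. ERO1A, an oxidase of the endoplasmic reticulum, was at 9.82 and 10.50 (0.69). The 27 autophagy genes had a median of -0.09. Among them the mitophagy receptor BNIP3L differed by -1.03 (9.97 with NRF3 siRNA), the mitophagy kinase PINK1 was at 7.78 and 7.14 (-0.64) and the receptor FUNDC1 differed by -0.03, while ATG12 (8.93 and 9.48, 0.55) was higher. Among NF-kappaB targets, IL18 (8.62 and 7.57, -1.05), an inflammatory cytokine, IER3 (-0.64), an early response gene, and the feedback inhibitor TNFAIP3 (7.40 and 6.77, -0.63) were at least 1.5-fold lower. These were 3 of 19, beside 2.38% of all genes, in a list with 11 lower and a median of -0.16. Of 19 WNT targets, 15 were lower (median -0.13), led by LGR4 (7.35 and 6.75, -0.60), a receptor for R-spondins, and CCND1 (11.94 and 11.35, -0.58), cyclin D1, while MYC was higher (11.65 and 12.13, 0.48). Of 18 YAP and TAZ targets, 11 were lower, among them AXL (9.75 and 8.88, -0.86), a receptor kinase, and AMOTL2 (8.33 and 7.72, -0.62).

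Targets of p53 were split in this line. Of 29 expressed, 14 were lower and 15 higher, with a median of 0.01. The lower end held TP53INP1 (7.39 and 5.78, -1.61), a regulator of cell death that ended under 6 and whose gene overlaps NDUFAF6, GDF15 (9.72 and 8.53, -1.18), a stress-induced cytokine, and CDKN1A (8.76 and 8.07, -0.69), the cyclin kinase inhibitor p21. The higher end held PLK2 (8.88 and 9.54, 0.66), a stress-induced kinase, and XPC (6.38 and 6.94, 0.57), a DNA damage sensor. In HCT116 the list had a median of 0.30, with 23 of 29 higher. There CDKN1A was at 9.82 and 9.98 (0.16) and GDF15 at 12.07 and 11.91 (-0.16). Whether the lines differ in these genes was not tested, since each has 1 array a side.

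Most DNA replication genes were higher, while mitotic genes lay near 0. E2F factors switch on genes for replication at entry to S phase, and mitotic genes follow later in G2. Of 34 E2F and replication genes, 29 were higher and 5 lower, with a median of 0.23, and 3 were at least 1.5-fold higher beside 3.63% of all genes. GINS3, a subunit of the replicative helicase complex, was at 9.43 and 10.10 (0.67), CCNE2, cyclin E2, at 9.39 and 10.02 (0.64) and POLE, the leading strand polymerase, at 9.69 and 10.30 (0.61). CDC45, which completes that helicase, was at 9.22 and 9.80 (0.58). The exceptions included CCNE1, cyclin E1 (10.32 and 9.85, -0.47), and CCNA2, cyclin A2 (11.11 and 10.86, -0.25). Of 30 G2 and mitosis genes, 19 were lower, with a median of -0.10, and HMMR, a spindle-associated hyaluronan receptor, was the one past 1.5-fold (7.93 and 7.19, -0.74). In HCT116 these 30 genes had a median of -0.69 with 20 at least 1.5-fold lower, and the replication list had a median of -0.11. In bulk RNA, more cells in a phase of the cycle and more of a transcript in each cell cannot be told apart. In G1, CDK6 (9.50 and 8.66, -0.85), a cyclin D kinase, and E2F5 (8.42 and 7.74, -0.68) were lower.

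Other biosynthetic groups were higher with the replication genes. Of 22 nucleotide synthesis genes, 18 were higher (median 0.21). CAD, which starts pyrimidine synthesis, was at 9.69 and 10.60 (0.91), and PRPS1, which makes phosphoribosyl pyrophosphate, at 10.30 and 10.82 (0.52), while RRM1, the large subunit of ribonucleotide reductase, was lower (10.54 and 9.98, -0.56). Of 26 DNA repair genes, 19 were higher (median 0.16), with PMS1 at 9.19 and 9.84 (0.65) and BRCA1 at 8.11 and 8.60 (0.49). Of 19 cytosolic tRNA synthetases, which charge tRNAs with amino acids, 14 were higher (median 0.21) and 0 passed 1.5-fold, with HARS1 (10.83 and 11.40, 0.57) the highest. ATF4, the regulator of the amino acid response, was at 10.25 and 10.96 (0.71) and its target ASNS, asparagine synthetase, at 9.15 and 9.60 (0.44). CHAC1 (8.27 and 7.47, -0.80) and DDIT4 (8.29 and 7.63, -0.65), also targets of ATF4, were lower, so the 21 genes of this response were divided, with 15 higher and a median of 0.17.

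Several large gene families leaned one way by small amounts. Of 335 zinc finger genes named ZNF, most of which encode DNA-binding proteins with repeated fingers, 238 were higher (median 0.13, or 0.0698 with no filter on level). At least 1.5-fold higher were 38 of them (11.3%, beside 3.43% of the other genes) and 1 was at least 1.5-fold lower. ZNF845 (6.24 and 7.30, 1.06), ZNF252P (6.70 and 7.68, 0.98) and ZNF33B (6.55 and 7.50, 0.95) were the largest. Members of this family resemble each other, so their probe sets may share signal. Of 63 cytosolic ribosomal proteins, 51 were higher (median 0.13), although only RPL26L1 passed 1.5-fold (8.91 and 9.55, 0.64), and did not by the mean of its 2 probe sets (0.51) or after loess correction (0.58). RPL10 was lower (12.59 and 12.13, -0.46). Subunits of respiratory complex I were higher in 24 of 33 (median 0.16), and those of cytochrome bc1, cytochrome oxidase and ATP synthase in 25 of 31 (median 0.11), with 0 of either past 1.5-fold. With 1 array a side these small medians have no replicate check. Mitochondrial import held one contrast, with the receptor TOMM20 at 10.26 and 9.10 (-1.16) and its partner TOMM22 at 11.45 and 12.26 (0.81).

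**Figure D3:**
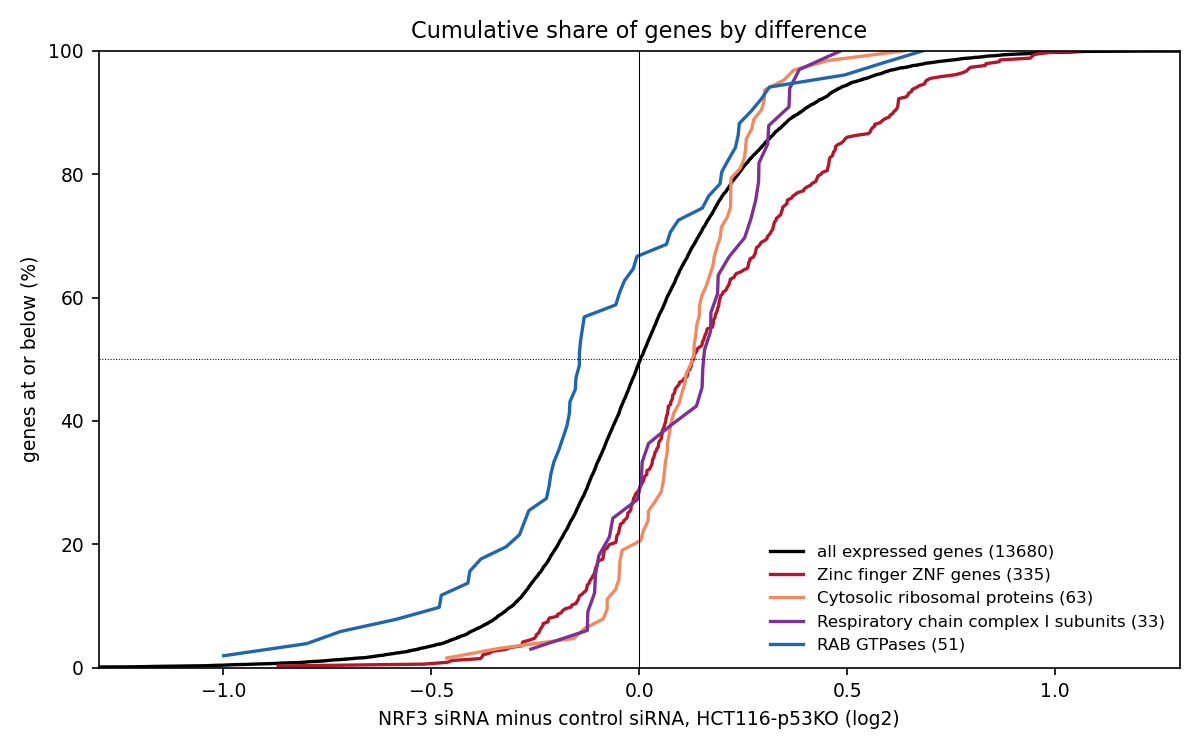
Cumulative share of genes (%) at or below each difference (NRF3 siRNA minus control siRNA, log2) in HCT116-p53KO for all 13680 expressed genes and 4 families. The zinc finger (335), ribosomal protein (63) and complex I (33) curves cross 50% to the right of 0, at medians of 0.13, 0.13 and 0.16, and the RAB curve (51) crosses to the left, at -0.14.

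The genes at the high end mostly belonged to none of these groups. NETO2, a partner of kainate receptors, was at 8.19 and 9.83 (1.64), the only gene over 3-fold higher (3.12-fold). KIF1C, a kinesin motor, was at 8.20 and 9.59 (1.39). SETD7, a lysine methyltransferase, was at 8.39 and 9.74 (1.35). MYB, a transcription factor of progenitor cells that is active in colon cancer, was at 7.17 and 8.51 (1.34). GANAB, the glucosidase II subunit that trims glycans in the endoplasmic reticulum, was at 10.25 and 11.57 (1.32), and MOGS, the glucosidase that acts before it, was at 8.51 and 9.28 (0.77). POGLUT3, which adds glucose to EGF repeats, was at 7.81 and 9.01 (1.21). The curated list of folding and glycoprotein quality control in the endoplasmic reticulum did not lean this way as a whole, with a median of 0.04 over 25 genes, 10 of them lower, among them UGGT1 (-0.45) and SEL1L (-0.43). MTA1, a subunit of the NuRD deacetylase complex, was at 9.40 and 10.57 (1.17), and its relatives MTA2 (-0.05) and MTA3 (-0.26) were not higher. Of 15 NuRD genes, 9 were higher, with a median of 0.13, and MTA1 was the 1 past 1.5-fold. ENSA, which inhibits the phosphatase PP2A in mitosis, was at 9.74 and 10.80 (1.06), and its dimmest probe set showed 0.25. PLAGL1, an imprinted zinc finger factor, was at 8.99 and 10.04 (1.06), and CDCA7 at 8.86 and 9.91 (1.05). SEMA3A, a guidance molecule, GPM6A and SERPINI1, proteins known from neurons, were higher from control levels of 5.64, 5.88 and 5.58, under 6, so their sizes (1.13, 1.09 and 1.34) are uncertain. In metabolism, ACAT1, which makes acetoacetyl-CoA in mitochondria, was at 9.35 and 10.36 (1.01), PFKL, a phosphofructokinase, at 8.39 and 9.43 (1.04), and IDH3A at 11.06 and 11.88 (0.82), while IDH1, the cytosolic isocitrate dehydrogenase, was lower (10.71 and 9.74, -0.97). Of 21 glucose uptake and glycolysis genes, 13 were lower (median -0.02). Of 21 TCA cycle enzymes, 15 were higher (median 0.10), as were 12 of 16 fatty acid oxidation and ketone enzymes (median 0.10).

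**Figure D4:**
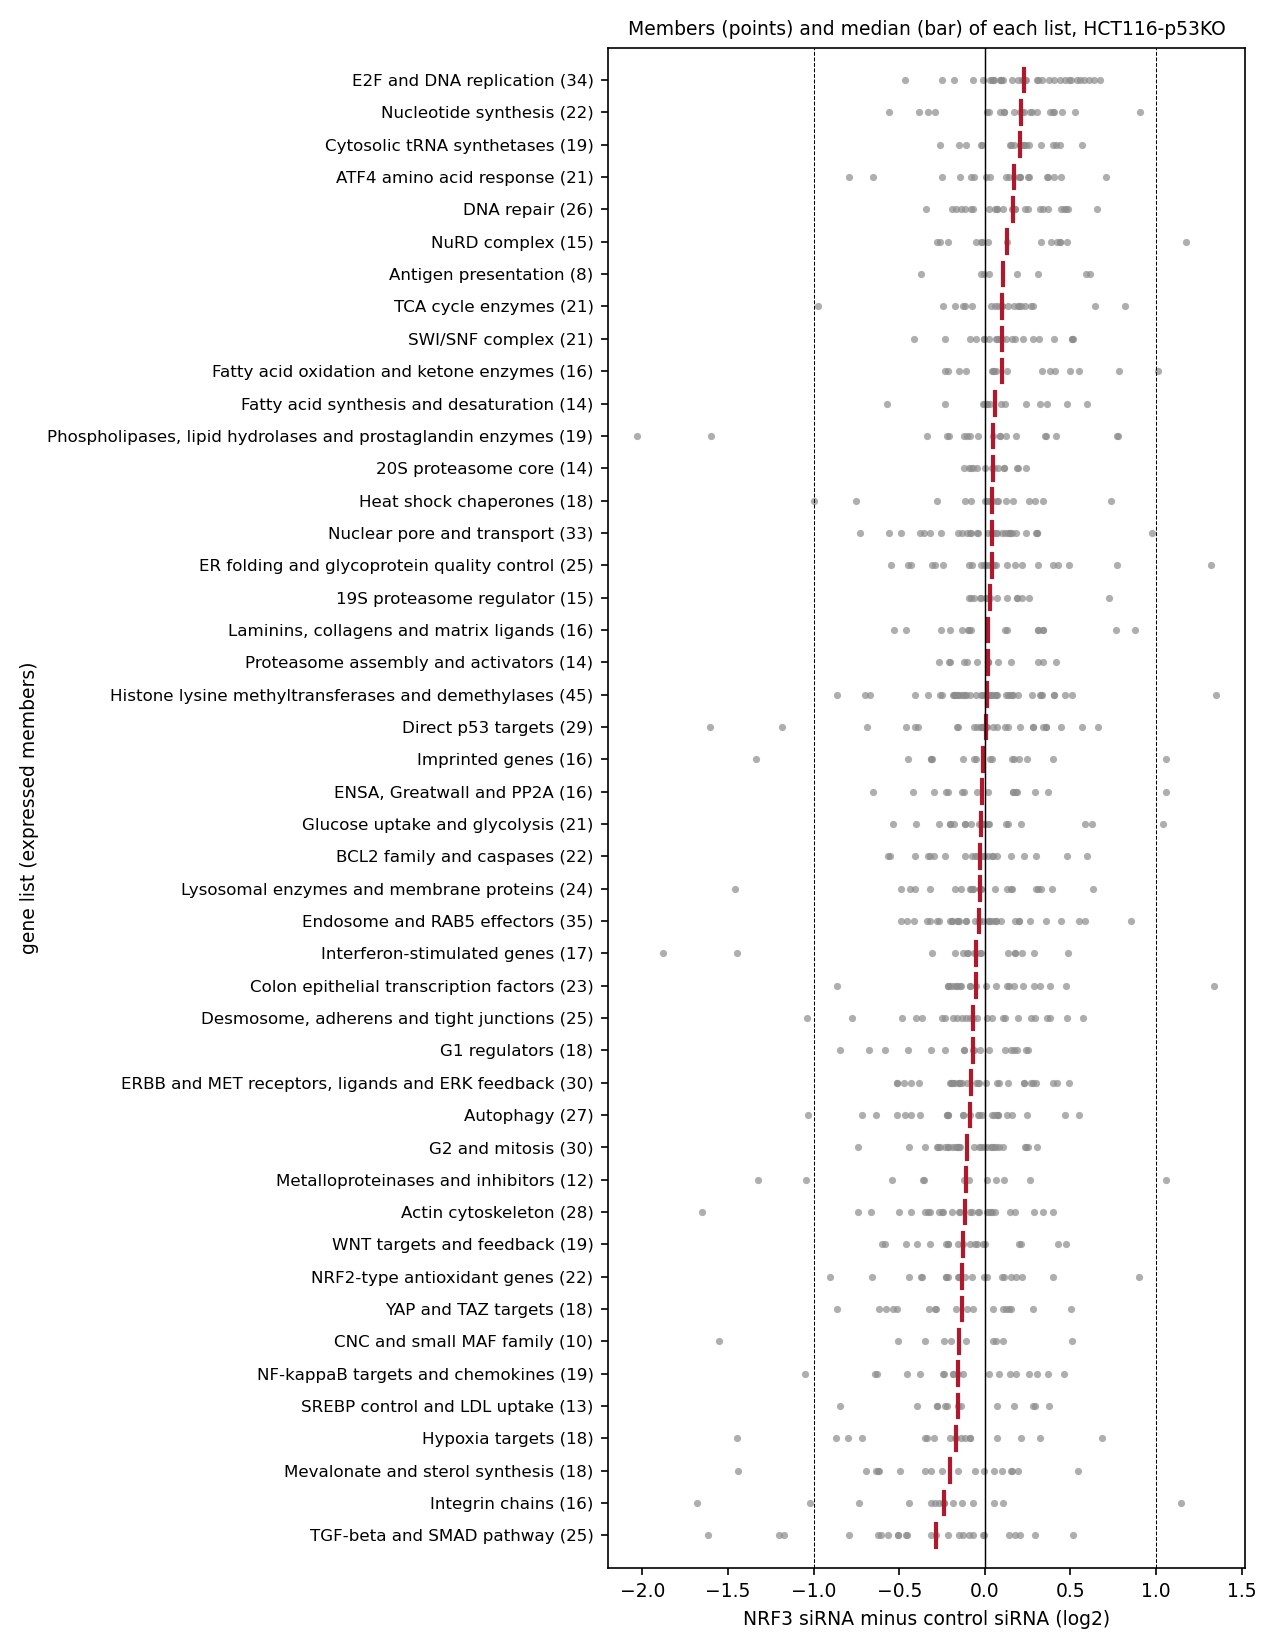
Differences (NRF3 siRNA minus control siRNA, log2) of the expressed members (points) of each curated list with 5 or more expressed members in HCT116-p53KO, ordered by median (red bar). Medians run from -0.28 for TGF-beta and SMAD signalling to 0.23 for E2F and DNA replication, and single members lie far outside their list.

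The knockdown in HCT116 uses separate arrays and shows which of these differences recur in the line not labelled as p53-deficient. Across 13566 genes expressed in both lines the differences had a Pearson correlation of 0.53, given as a description across genes, which share the array platform and were measured in related lines. The sign was shared by 61.7% of genes. All 59 genes at least 2-fold lower here were also lower in HCT116, 51 of them by at least 1.5-fold, beside 6.06% of all genes there. Of the 37 genes at least 2-fold higher here and expressed in both lines, 36 were higher in HCT116, 24 of them by at least 1.5-fold, beside 2.51% of all genes. At 1.5-fold the sides differed: of 323 lower genes 228 (70.6%) were at least 1.5-fold lower in HCT116, which is 27.7% of the 822 lower there. Of 491 higher genes 160 (32.6%) were at least 1.5-fold higher in HCT116, which is 46.9% of the 341 higher there. The higher genes were larger here in 416 of 491 cases and the lower genes in 167 of 323. Since genes were chosen on their size in HCT116-p53KO, a larger size here is partly built into the choice.

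Some genes differed here and stood within 0.1 of 0 in HCT116. On the lower side NDRG1 was at 10.22 and 9.42 here against 10.71 and 10.76 in HCT116, DDIT4 at 8.29 and 7.63 against 8.06 and 8.11, and TNFAIP3 at 7.40 and 6.77 against 7.24 and 7.17. NDRG1 and DDIT4 are both induced by stress. On the higher side MAP2, a microtubule protein of neurons, was at 6.41 and 7.58 here against 6.82 and 6.76 in HCT116. ARG2, the mitochondrial arginase, was at 7.34 and 8.35 against 6.95 and 7.01, and USP18, which removes ISG15 from proteins, at 7.65 and 8.55 against 8.07 and 8.13. CDC7, a kinase that fires replication origins, was at 7.29 and 8.14 against 7.11 and 7.06, and LYRM7, a complex III assembly factor, at 6.72 and 7.76 (1.04) against a difference of 0.07. Whether these genes differ between the lines was not tested.

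**Figure D5:**
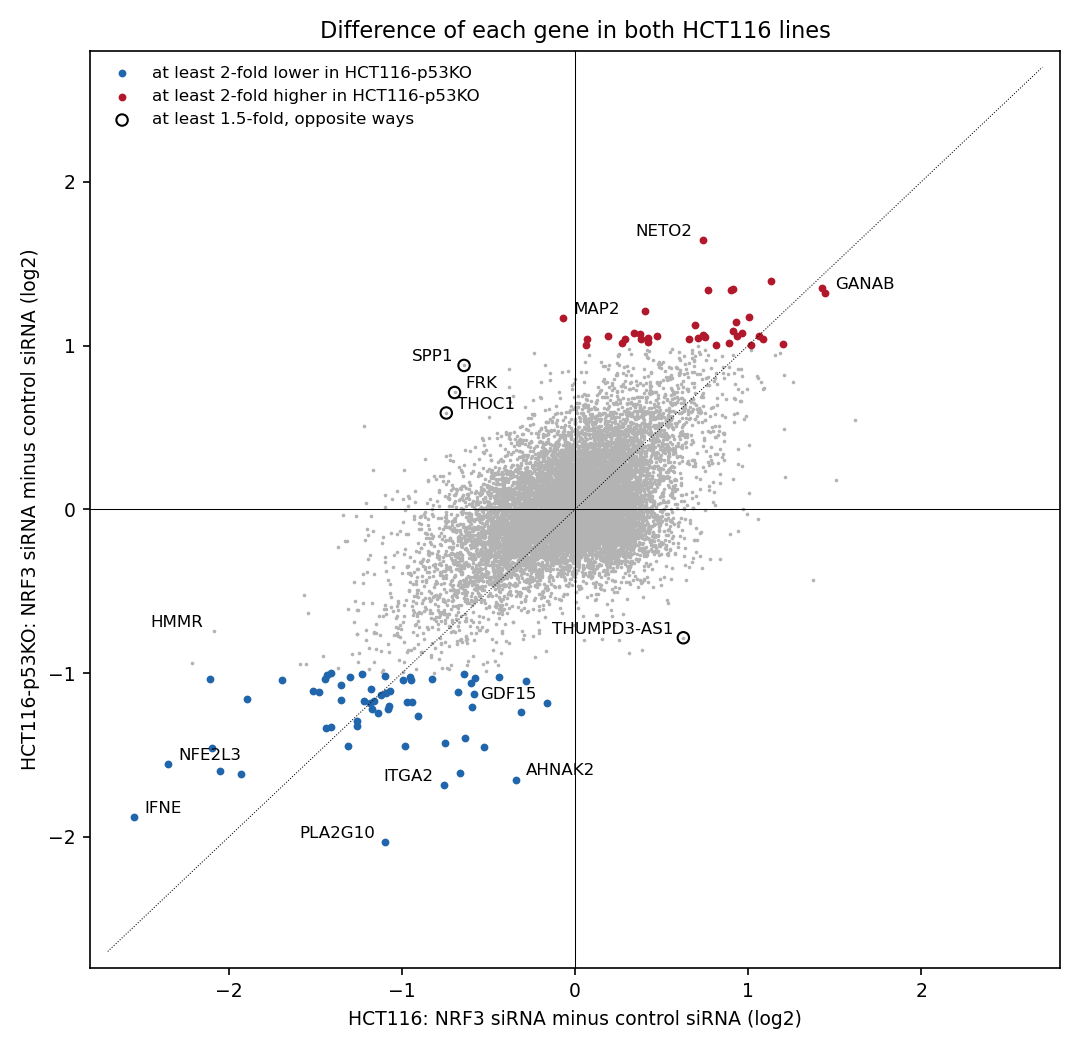
Each point is 1 of 13566 genes expressed in both lines, with its difference (NRF3 siRNA minus control siRNA, log2) in HCT116 on the horizontal axis and in HCT116-p53KO on the vertical axis. The dotted line marks equal differences, all 59 blue points lie to the left of 0, and circles mark 4 genes at least 1.5-fold in opposite directions.

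In H1299, where NRF3 was raised and not lowered, few of these genes differed the opposite way. NFE2L3 was higher there by 2.02. Of the 59 genes at least 2-fold lower here, 50 were expressed in H1299, and 6 were at least 1.5-fold higher with NRF3, beside 4.62% of all genes, while 3 were at least 1.5-fold lower. The 6 were NFE2L3 itself, GPRC5A (0.997), MSMO1 (0.85), RMND5A (0.98), RHOBTB3 (0.81) and MRS2 (0.69). Of the 32 higher genes expressed in H1299, 2 were at least 1.5-fold lower there, SLC16A9 (-1.22) and SEMA3A (-0.90), beside 3.71% of all genes, and 2 were at least 1.5-fold higher. The 6 genes higher in H1299 were taken from the 59 lower in HCT116-p53KO, so their direction there was set by the choice. All 59 were lower in HCT116 too, so that is not particular to the 6.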

How the data were processed

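RNA of 6 cell groups was hybridised to Affymetrix whole-transcript arrays, 1 array per group, from 100 ng of total RNA, per the labels' protocols. The authors deposited log2 intensities for 33297 probe sets. The submitters' processing notes name Affymetrix Expression Console and RMA, and the sources used here do not say which arrays went through RMA in one run. RMA forces arrays to a common distribution, so a shift of all genes would not be seen.

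Of the probe sets, 19460 had 1 symbol in the array annotation and were kept, 1754 had several and 12083 were not listed. The probe set with the highest mean over the 6 arrays stood for each gene. RefSeq GRCh38.p14 gave names, overlaps and promoters. Differences were taken on the log2 scale with a level of at least 6 on 1 of the 2 arrays, and genes were counted at 2-fold and 1.5-fold. With 1 array per group no test was made, and precision is limited by that number. Named genes were NFE2L3, the 25 lowest and 25 highest, up to 6 members of each list and 3 of each family by size, and up to 10 each way that were opposite or within 0.1 of 0 in HCT116. Small RNAs were counted. CCNA2, CCNE1, FASN, FUNDC1, HSPD1, ID3, MTA2, MTA3, SKI, SLC7A11, SQLE, SREBF2, and the genes listed for a motif or for H1299, fall outside this rule and were named after their values were seen. The members, 47 lists and 30 families were chosen with earlier results of these data known. The p53 gene is not analysed here. Alternatives covered filters, probe sets, normalization and list means, and leaving out genes that overlap a neighbour was added after seeing the data. Counting was checked on simulated data. Python 3.11.15 with pandas, scipy and statsmodels was used.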

Additional observations from a re-analysis of the deposited data

Results flagged for a closer look

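In 4 genes the difference after NRF3 siRNA was at least 1.5-fold in each HCT116 line and ran in opposite directions, which marked them for a closer look. The difference between the lines was not tested, since each line has 1 array a side. SPP1, the secreted phosphoprotein osteopontin, was higher in HCT116-p53KO (6.02 and 6.90, 0.88) and lower in HCT116 (6.97 and 6.33, -0.64). FRK, a Src-related kinase, was higher in HCT116-p53KO from a control level under 6 (5.58 and 6.29, 0.71) and lower in HCT116 (7.55 and 6.86, -0.70). THOC1, a subunit of the mRNA export complex THO whose gene overlaps USP14, was higher in HCT116-p53KO (8.07 and 8.65, 0.59) and lower in HCT116 (8.32 and 7.57, -0.74). Its difference in HCT116-p53KO was barely past 1.5-fold. It lay under that size after loess correction (0.54) and after quantile normalization over the 6 arrays (0.56). THUMPD3-AS1, an antisense RNA whose signal cannot be told apart from that of overlapping THUMPD3, was lower in HCT116-p53KO (-0.78) and higher in HCT116 (0.63), each time with an array under 6.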

How the results depend on the processing

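No paired analysis was possible because each group had 1 array. The counts at 2-fold and 1.5-fold stayed within 1.5 times under all 9 alternatives tried for each. Of 518 alternative values for list medians, 0 changed direction among medians of 0.1 or more. In size, 5 of these values moved, 4 with a filter of 7 and 1 with no filter. Integrin chains were among the 4, with a median of -0.38. With no filter the zinc finger genes moved to 0.0698. Requiring 2-fold in both lines left 35 lower and 8 higher genes in place of 228 and 160, by the construction of a stricter size. The correlation with HCT116 was 0.42 by Spearman in place of 0.53. Of 1212 alternative values for named genes, 9 moved by more than the spread between probe sets, all when probe sets were averaged. ATF4, LGR4, POLE, RPL26L1, SMAD7, THOC1 and TNFAIP3, near the 1.5-fold limit, lay under it in at least 1 alternative. Signal near background limits every gene with an array under 6.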

Other observations

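Vesicle acidification and nuclear import held single members far from their group. Of 21 subunits of the vacuolar ATPase, which acidifies lysosomes, 2 were at least 1.5-fold lower, beside 2.38% of all genes. These were ATP6V1B2 (10.68 and 9.75, -0.93) and ATP6V1E1 (9.95 and 9.17, -0.78). The 1 at least 1.5-fold higher, beside 3.63% of all genes, was ATP6V1A (9.76 and 10.39, 0.63). The group had a median of -0.04. Among 33 genes of the nuclear pore and transport, the import receptor KPNA1 was lower (10.09 and 9.36, -0.73) and the pore protein NUP210 higher (9.47 and 10.44, 0.98). Among chaperones, HSPE1, the mitochondrial co-chaperonin, was at 9.60 and 8.60 while its partner HSPD1 was at 11.93 and 12.19 (0.26). Among histone methylation enzymes the demethylase KDM5B was lower (9.19 and 8.33, -0.86) beside 0.39 in HCT116.

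Probe sets outside the gene comparison held large differences too. Of 6568 expressed probe sets not listed in the annotation, 54 were at least 2-fold lower (0.822%, beside 0.431% of genes) and 27 at least 2-fold higher (0.411%, beside 0.278% of genes). Of 1304 with several symbols, 0 were at least 2-fold lower, beside 0.431% of genes. At least 2-fold higher were 7 of them (0.537%, beside 0.278% of genes).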
